A study of Mus musculus with 20 samples.

Results

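Alternative activation is the state that macrophages take on under interleukin-4 (IL-4) or interleukin-13, and it was followed here through 9 marker and regulator genes, Mrc1, Arg1, Chil3, Retnla, Clec10a, Pparg, Il4ra, Stat6 and Irf4. They were found by gene symbol, and 7 of the 9 had a row among the 14456 genes of the table. Arg1 and Retnla had none and were not analysed here. All libraries came from bone marrow-derived macrophages (BMDM) of wild-type C57BL/6 mice aged 8 weeks, grown for 6 days with 25 ng/ml of the growth factor M-CSF. The glucose experiment has 4 libraries from BMDM given 25 mM glucose during 24 h, called high glucose, and 4 from BMDM given 5.5 mM glucose and 19.5 mM mannitol, called normal glucose. In the exosome experiment, naive BMDM were exposed for 24 h to PBS (n = 4), to exosomes of BMDM kept in normal glucose (BMDM-NG-exo, n = 4) or to exosomes of BMDM kept in high glucose (BMDM-HG-exo, n = 4), with 2000000000 particles per ml. Exosomes are small vesicles that cells release. No group received IL-4 or interleukin-13 according to the labels, so the levels below are those of BMDM in M-CSF. Mannitol, which keeps the osmolarity equal, was present only in normal glucose, and its absence and the added glucose cannot be told apart. The labels do not say which animals gave which library, so p-values concern these libraries and not animals. The main test, limma, draws the variance of each gene toward a trend over all genes, so its p-values and standard errors do not rest on the spread between these libraries alone.

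In the textbook pathway, IL-4 binds a receptor whose alpha chain is encoded by Il4ra, Janus kinases on the receptor phosphorylate the transcription factor STAT6, and STAT6 enters the nucleus and switches on target genes. The fatty acid receptor PPARG and the interferon regulatory factor IRF4 are transcription factors that act with STAT6 on part of these genes. The markers at the end of the pathway include the endocytic mannose receptor MRC1 (CD206), the galactose-binding lectin CLEC10A and the secreted chitinase-like protein CHIL3 (Ym1).

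Among the markers, the mannose receptor gene Mrc1 had the smallest adjusted p in any comparison, and its promoter is shown for that reason. RefSeq gave promoters for 7 of the 9 genes and none for Arg1 and Clec10a. The stretch printed runs on the + strand of GRCm38.p6 at chr2:14229164-14229391, and it ends just before the gene as GENCODE M21 draws it, so that 22 bases of the 250 before the RefSeq start are left out. Capitals mark TTCCTC, which is GAGGAA on the other strand, the core that the myeloid factor PU.1 prefers.

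Mrc1: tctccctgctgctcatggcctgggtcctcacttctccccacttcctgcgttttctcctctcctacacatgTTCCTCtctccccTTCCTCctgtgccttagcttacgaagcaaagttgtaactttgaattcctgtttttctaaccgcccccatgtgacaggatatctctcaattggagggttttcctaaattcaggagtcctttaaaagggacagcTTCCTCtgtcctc

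GAGGAA was found 3 times, with first bases 180, 167 and 35 bases before the RefSeq start, and 0.429% of all 32851 RefSeq promoters held it at least 3 times in the 250 bases (23.3% held it at all, both strands searched). It was not particular to Mrc1 among the markers. The Stat6 promoter held it 2 times, and those of Irf4 and Retnla and 1 promoter of Pparg held it 1 time each. The promoters of Chil3 and Il4ra did not hold it. The spacing preferred by STAT6, TTCNNNNGAA, was not in the Mrc1 stretch, and among the markers with an entry it was in the promoter of Retnla alone, whose expression was not analysed here. Of all promoters, 5.85% held it. The 3-base spacing of other STAT factors, TTCNNNGAA, was in the Chil3 promoter and in 7.02% of all promoters. These are matches of letters and not measured binding.

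Levels between genes were compared as normalized count per kilobase of exon, averaged over the 20 libraries. On this scale the order was Stat6 at 2175, Mrc1 at 1387, Il4ra at 881, Pparg at 467, Clec10a at 205, Irf4 at 45.8 and Chil3 at 39.7. The mean normalized counts of the signalling genes Stat6 and Il4ra and the receptor gene Mrc1 were above those of 96.0%, 90.9% and 95.6% of all listed genes. These counts are not corrected for length, and a rank per kilobase over all genes was not computed. The secreted marker Chil3 was the lowest of the markers per kilobase, with between 22 and 105 reads in a library. Close relatives had their own rows for 6 of 13 genes, and none of the 6 passed in any of the comparisons. The lectin gene Mgl2, a close relative of Clec10a, had 7.64 normalized counts per kilobase of exon on average, and the mitochondrial arginase gene Arg2 had 38.4. Reads that Mgl2 and Clec10a share cannot be assigned with certainty.

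The 7 genes are protein coding, and in GENCODE M21 (GRCm38) they lie at chr2:14229392-14332057 for Mrc1, chr3:106147554-106167564 for Chil3, chr11:70156197-70170834 for Clec10a, chr6:115360951-115490399 for Pparg, chr7:125552120-125579474 for Il4ra, chr10:127642986-127660957 for Stat6 and chr13:30749226-30766976 for Irf4. The values are counts over all exons of a gene, so transcript forms of Pparg or Mrc1 are not told apart.

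The label of the cells was checked against marker lists. All 8 macrophage markers were listed, with summed normalized counts between 628420 and 878735 in a library. None of the 7 dendritic cell, 5 T cell or 6 erythroid markers was listed, and the 5 listed of 9 neutrophil markers summed to at most 378. The eosinophil, basophil and mast cell list had 1 of 7 genes, the B cell list 1 of 5 and the progenitor list 1 of 3, with at most 39.4, 68.0 and 125.0 normalized counts. The stromal list had 4 of 5 genes, which summed to at most 372. No gene of these other cell types passed in any comparison. Reads summed over the listed genes ran from 34016445 to 56310712 in a library.

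**Figure D1:**
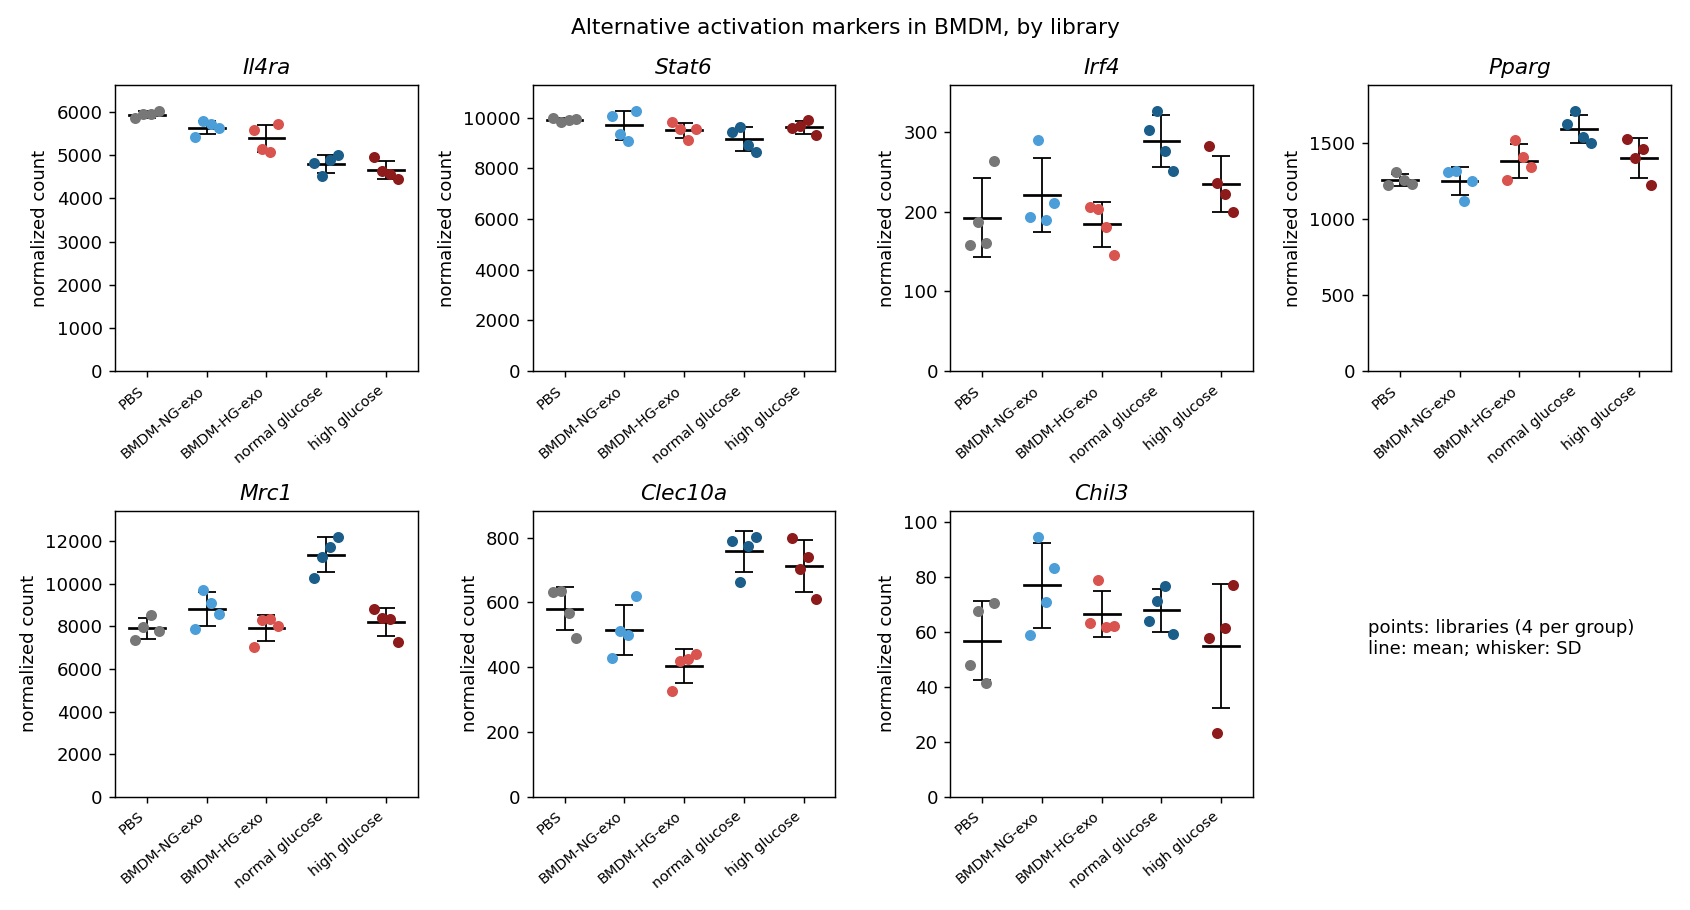
Normalized count (vertical axis, from 0) of the 7 listed markers in each of the 5 groups; each point is 1 of 4 libraries, the line is the mean and the whisker the SD. The 4 normal glucose libraries lie above the other 16 for Mrc1, and the 4 BMDM-HG-exo libraries lie below all PBS libraries for Clec10a and Il4ra.

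Mrc1 was lower in high glucose, and no other marker passed the test. The comparison asks how BMDM respond to high glucose, which cannot be told apart here from the absence of mannitol. Mrc1 had normalized counts of 10252, 11271, 11710 and 12207 in the normal glucose libraries, beside 8831, 8410, 8330 and 7271 in those of high glucose. The groups did not overlap, a separation that 16.3% of all genes showed. The means were 11360 ± 832 and 8211 ± 664 (SD, n = 4 each), which is -27.7% in high glucose. By limma the log2 fold change was -0.47 with a standard error of 0.048, and the p adjusted over 14425 genes was 3.84e-09. Genes counted as changed at an adjusted p under 0.05 were 13.3% of all tested, 7.74% higher and 5.53% lower, against 1 of 7 markers. At an unadjusted p under 0.05 there were 3 markers, beside 3663 of all 14425 genes. Of the markers, edgeR called 1 and DESeq2 2, beside 1904 and 2162 of all genes. The split of the genes changed by limma, 1116 higher and 798 lower, became 789 and 873 with quantile normalization, and Mrc1 was lower in both. The median log2 fold change of the 7 markers was -0.19, beside -0.0031 for all genes. Mrc1 passed in each of the alternatives and with each library left out, with adjusted p between 7.19e-15 and 0.024. The highest, 0.024, came from limma without the trend of the variance on the mean, where the standard error was 0.0798. In bulk RNA, fewer cells carrying a transcript and less of it per cell cannot be told apart.

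Pparg and Irf4 had lower means in high glucose and did not pass. Pparg, the lipid sensor, had 1627, 1714, 1540 and 1504 normalized counts in the normal glucose libraries, beside 1528, 1401, 1460 and 1223 in those of high glucose. The 2 groups overlapped, since the highest library in high glucose lay above the lowest in normal glucose. Its log2 fold change of -0.19 (SE 0.0656) had an adjusted p of 0.0503 by limma, just outside the threshold. Pparg passed in 5 of 10 alternatives, among them TMM factors (adjusted p = 0.0467) and DESeq2 (0.0487), and not in edgeR (0.0531). It also passed without normal glucose replicate 6 (0.040) or high glucose replicate 1 (0.0248), and its adjusted p was 0.271 without high glucose replicate 6, which had the lowest count.

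Irf4 had 303, 326, 277 and 250 normalized counts in the normal glucose libraries, beside 282, 236, 222 and 199 in those of high glucose. Its log2 fold change of -0.30 (SE 0.136) had an adjusted p of 0.151 by limma. The groups overlapped in this gene of few reads.

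The receptor gene and the gene of its signal transducer did not pass. Il4ra had a mean of 4808 ± 210 in normal and of 4658 ± 212 in high glucose (SD, n = 4 each), a log2 difference of -0.05 with a 95% interval of -0.13 to 0.04. Stat6 had 9155 ± 458 and 9618 ± 248, a log2 difference of 0.07 with an interval of -0.01 to 0.15.

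Clec10a had 757 ± 63.6 in normal and 713 ± 79.3 in high glucose (SD, n = 4 each), a log2 difference of -0.09 with a 95% interval of -0.27 to 0.09. Its groups overlapped. Chil3 had 64.1, 71.5, 76.9 and 59.5 normalized counts in the normal glucose libraries, beside 57.9, 23.3, 61.4 and 77.3 in those of high glucose. A single high glucose library, replicate 2, was low, and the log2 difference of -0.42 had an interval from -1.02 to 0.19. It was -0.056 without that library and between -0.62 and -0.36 without any other.

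**Figure D2:**
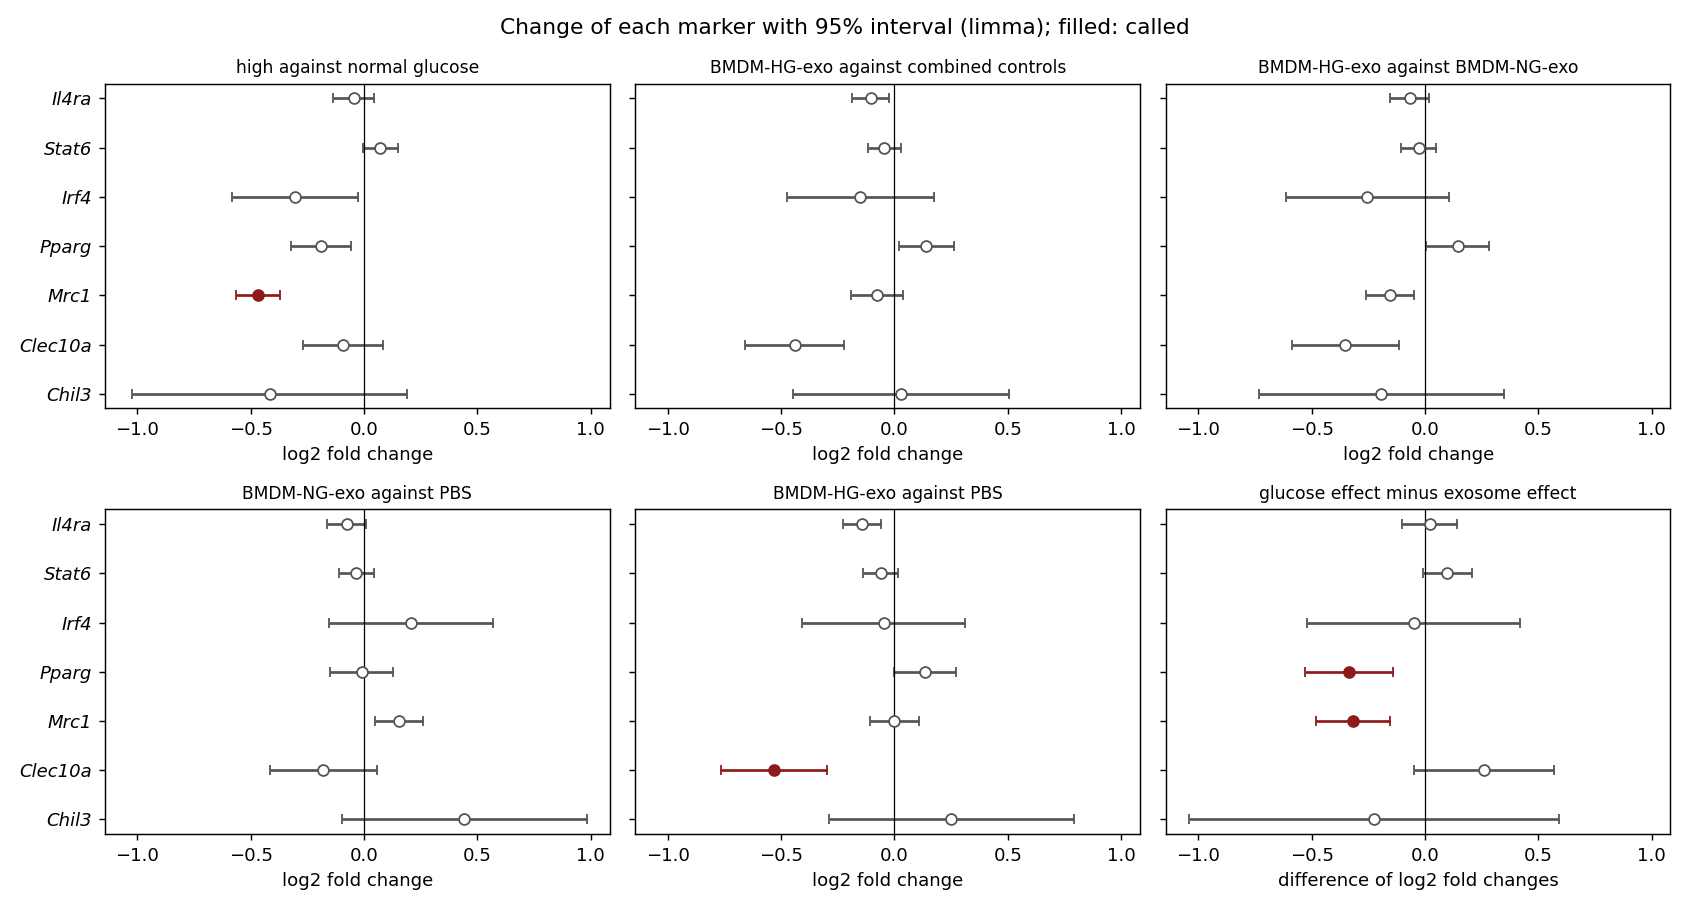
Log2 fold change of each marker (horizontal axis; for the last panel the difference of 2 log2 fold changes) with its 95% interval from limma in 6 comparisons; filled points passed the test. Mrc1 stands apart in high glucose at -0.47, Clec10a in BMDM-HG-exo against PBS at -0.53, and Mrc1 and Pparg in the difference between glucose and exosome effects.

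Around these markers, genes of the IL-4 and PPARG pathways moved in both directions with high glucose. Of 51 tested genes from 3 lists, 7 rose and 11 fell, beside the background of 7.74% and 5.53%. The lists were chosen with earlier results of these data known, so these counts do not test for an excess over that background. In the receptor and signalling list, 4 of 13 changed. The adaptor gene Irs2, which links the IL-4 receptor to insulin-type signalling, fell by 0.46 on the log2 scale (SE 0.0646), and the kinase gene Jak3 fell by 0.42 (SE 0.0854). The phosphatase gene Ptpn1 fell by 0.24 and the phosphatase gene Ptpn6 (SHP-1), a brake on cytokine receptors, rose by 0.27.

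Among IL-4 and STAT6 target genes, 6 of 22 changed, 4 of them downward. The histone demethylase gene Kdm6b fell by 0.66 (SE 0.0992), from 587 ± 41.7 to 372 ± 31.7 normalized counts (SD, n = 4 each). The maturation marker Cd83 (-0.28), the transglutaminase gene Tgm2 (-0.20) and the beta-glucan receptor gene Clec7a (-0.19) fell as well. The transglutaminase subunit gene F13a1 rose by 0.38 and the cyclooxygenase gene Ptgs1 by 0.21.

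Among PPARG partners and target genes, 4 rose and 4 fell of 16. The heme oxygenase gene Hmox1 rose by 0.56 (SE 0.0413) and the lipase inhibitor gene Angptl4 by 0.30. The fatty acid carriers Fabp4 (-0.36) and Fabp5 (-0.17) fell, and the phospholipid transfer protein gene Pltp fell by 0.33. The median log2 fold change of the 51 genes was 0.02, beside -0.0031 for all genes tested.

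Classical activation markers, the genes of the opposite, lipopolysaccharide- and interferon-driven state, rose in 7 and fell in 1 of 15, with a median log2 fold change of 0.36. The itaconate enzyme gene Acod1 rose by 1.59 (SE 0.215), the cystine transporter gene Slc7a11 by 1.41 and the cytokine gene Tnf by 0.74. The costimulatory gene Cd86 fell by 0.54. Of 8 regulatory macrophage markers tested, Folr2 rose by 0.17 and Maf fell by 0.18. Macrophage identity genes moved in the same comparison, 4 of 8 upward (Lyz2 by 0.42, Cd14 by 0.39, Csf1r by 0.35 and Adgre1 by 0.10) and 2 downward (Mertk at -0.40 and Cd68 at -0.15). All 8 together summed to between 628420 and 702912 normalized counts in normal glucose and between 808014 and 878735 in high glucose. Lyz2 made up most of these sums, with means of 480718 and 642842. The part of the 8 genes in the change of Mrc1 was not tested.

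**Figure D3:**
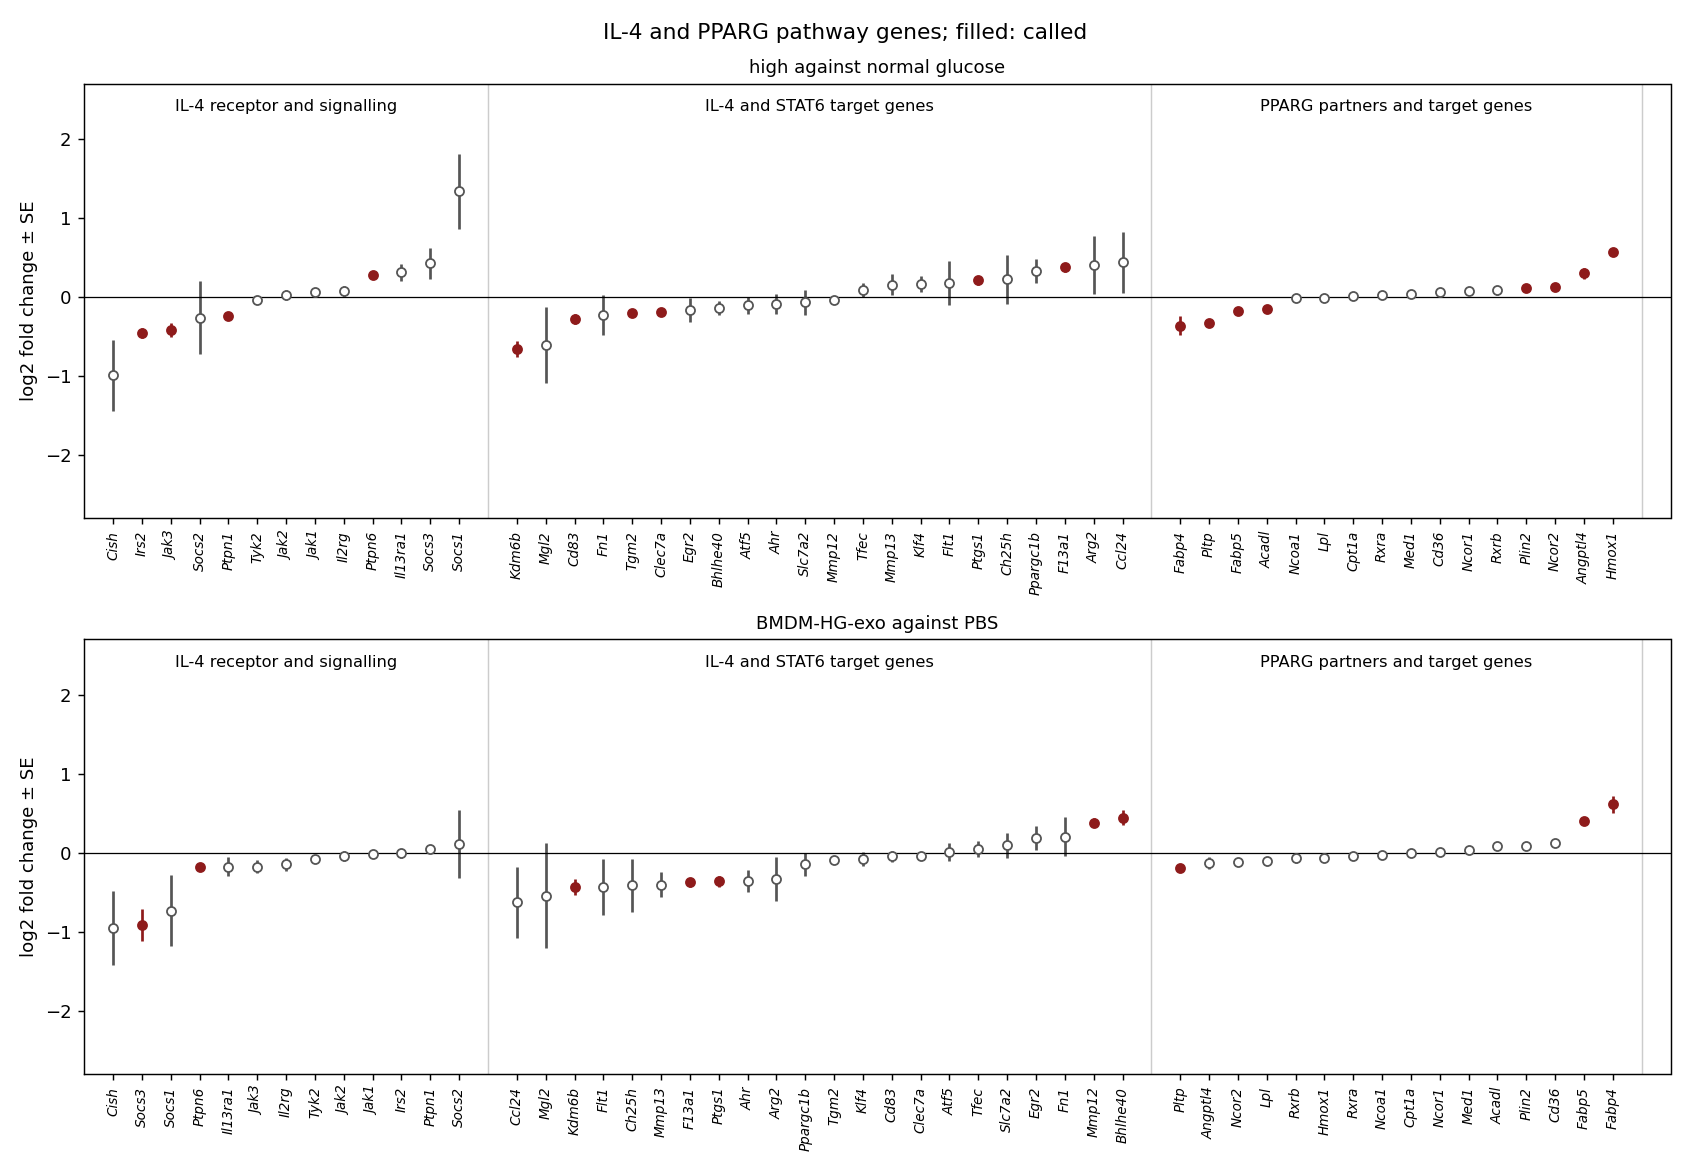
Log2 fold change with its standard error (vertical axis) of 51 tested pathway genes, ordered within each of 3 lists, for high against normal glucose (top) and BMDM-HG-exo against PBS (bottom); filled points passed the test. Hmox1 (0.56) and Kdm6b (-0.66) are the highest and lowest called genes in the top panel, and Fabp4 (0.61) and Socs3 (-0.91) in the bottom panel.

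Exosomes of high glucose BMDM were set against the combined PBS and BMDM-NG-exo controls, which is the comparison made by the study, and no marker passed (0.201% of all genes passed). At an unadjusted p under 0.05 there were 3 of 7 markers, Clec10a, Il4ra and Pparg, beside 1511 of all 14413 genes tested. Of the markers, edgeR called 0 and DESeq2 1, beside 32 and 136 of all genes. Clec10a had 402 ± 52.4 in the 4 BMDM-HG-exo libraries and 547 ± 76.0 in the 8 controls (SD), which is -26.5%. The log2 fold change was -0.44 (SE 0.106), with an adjusted p of 0.067 by limma and of 0.0148 by DESeq2, the alternative that called it. The adjusted p was 0.0238 without BMDM-NG-exo replicate 1 and 0.0248 without replicate 3. It was 0.343 without BMDM-HG-exo replicate 1, which had the lowest count of all libraries. The groups overlapped, by 1 BMDM-NG-exo library at 430 and 1 BMDM-HG-exo library at 441. None of the 7 markers separated these groups without overlap, while 1.17% of all genes did.

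Of the pathway genes, F13a1 (-0.33, SE 0.0539) and Kdm6b (-0.43, SE 0.0892) fell in this comparison, 2 of 51. None of 15 classical markers passed by limma. Of these 15, 5 had an unadjusted p under 0.05, beside 1511 of all 14413 genes tested. For the classical markers, edgeR called 0 and DESeq2 called 2, beside 32 and 136 of all genes. F13a1 thus fell with BMDM-HG-exo and rose with high glucose. Its glucose effect minus its effect of BMDM-HG-exo relative to BMDM-NG-exo was 0.66 (SE 0.0902) and passed the test. The macrophage markers Itgam (-0.29) and Fcgr1 (-0.39) were also lower in BMDM-HG-exo than in the combined controls. F13a1 and Kdm6b did not pass without BMDM-HG-exo replicate 1 or 2 (0 of 51), and 4 of 51 passed without BMDM-NG-exo replicate 3.

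Clec10a was lower in BMDM-HG-exo than in PBS. Its normalized counts were 631, 634, 567 and 491 with PBS, 430, 512, 498 and 618 with BMDM-NG-exo and 325, 420, 424 and 441 with BMDM-HG-exo. All BMDM-HG-exo libraries lay below all PBS libraries, and 10% of all genes had no overlap, in either direction. The BMDM-NG-exo libraries overlapped both. The log2 fold change between BMDM-HG-exo and PBS was -0.53 (SE 0.116, adjusted p = 0.00245, limma), which is -30.7%. It was lower on each of the 4 dates in the labels, with log2 differences from -0.95 to -0.16. Clec10a passed in 10 of 11 alternatives and with each library left out, and it did not when limma was run without the trend of the variance on the mean (adjusted p = 0.0755). Genes that passed this comparison, which also asked for an absolute log2 fold change of 0.15, were 4.84% of all tested, 1.76% higher and 3.08% lower, beside 1 of 7 markers.

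The receptor gene Il4ra had 5856, 5951, 5950 and 6029 with PBS, 5422, 5792, 5717 and 5641 with BMDM-NG-exo and 5595, 5156, 5085 and 5727 with BMDM-HG-exo. The PBS libraries were the highest of the 12, without overlap with either exosome group. In BMDM-HG-exo against PBS the log2 fold change was -0.14 (SE 0.0418) with an adjusted p of 0.0334 by limma, under the fold limit of 0.15, so Il4ra was not called. It was called with no fold limit and without BMDM-HG-exo replicate 1 (-0.16) or 4 (-0.17). In other fits the adjusted p of Il4ra was above the threshold. It reached 0.168 among the limma fits with a library left out and 0.165 among the other alternatives. In BMDM-NG-exo against PBS its log2 difference was -0.08 with an adjusted p of 0.45. A lack of overlap between BMDM-NG-exo and PBS was shown by 8.27% of all genes.

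Of the 51 pathway genes, 10 changed between BMDM-HG-exo and PBS, 4 upward and 6 downward. The fatty acid carriers Fabp4 (0.61, SE 0.108) and Fabp5 (0.40, SE 0.0425) rose, as did the macrophage elastase gene Mmp12 (0.38) and the transcription factor gene Bhlhe40 (0.44). The feedback inhibitor gene Socs3 fell by 0.91 (SE 0.203), and the cyclooxygenase gene Ptgs1 (-0.36) and F13a1 (-0.37) fell as well. Of the classical markers 5 of 15 fell, among them the chemokine gene Cxcl10 (-1.43, SE 0.245) and the cytokine gene Il1b (-1.13, SE 0.237). Markers of macrophages also fell in 5 of 8 cases, Fcgr1 (-0.60), Itgam (-0.38), Cd14 (-0.32), Csf1r (-0.26) and Adgre1 (-0.21). All 8 summed to between 794502 and 841224 normalized counts with PBS and between 735061 and 759636 with BMDM-HG-exo. Lyz2 made up most of these sums, with means of 597380 and 561049. The part of the 8 genes in the difference of Clec10a was not tested.

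Exosomes from BMDM in normal glucose also moved genes of these pathways, and the mean of Mrc1 was highest with them among the 3 exosome groups. Mrc1 had 7358, 7963, 8528 and 7772 with PBS, 7858, 9717, 9097 and 8561 with BMDM-NG-exo and 7020, 8289, 8329 and 8017 with BMDM-HG-exo. The groups overlapped, and within each date the BMDM-NG-exo library was the highest of the 3. The share of all genes with such a pattern was not computed. The log2 fold change between BMDM-NG-exo and PBS was 0.15 (SE 0.0527, adjusted p = 0.121, limma), and with the date as a block the adjusted p was 0.00522. Without the block, Mrc1 passed in 2 of 12 limma fits that each left out a library. In the main fit no marker passed (0 of 7, with 3% of all genes passing, 0.888% higher and 2.11% lower). At an unadjusted p under 0.05 there was 1 marker, beside 1947 of all 14413 genes tested. Of the markers, edgeR and DESeq2 called 0, beside 445 and 512 of all genes. Of the pathway genes 7 of 51 changed, Fabp4 (0.49) and Fabp5 (0.38) among the 5 that rose. Classical markers that fell included Irf5 (-0.18), Tnf (-0.47), Il1b (-0.90) and Cxcl10 (-0.85). The same 5 macrophage markers as above, Fcgr1 (-0.41), Itgam (-0.18), Cd14 (-0.31), Csf1r (-0.22) and Adgre1 (-0.16), were lower too.

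**Figure D4:**
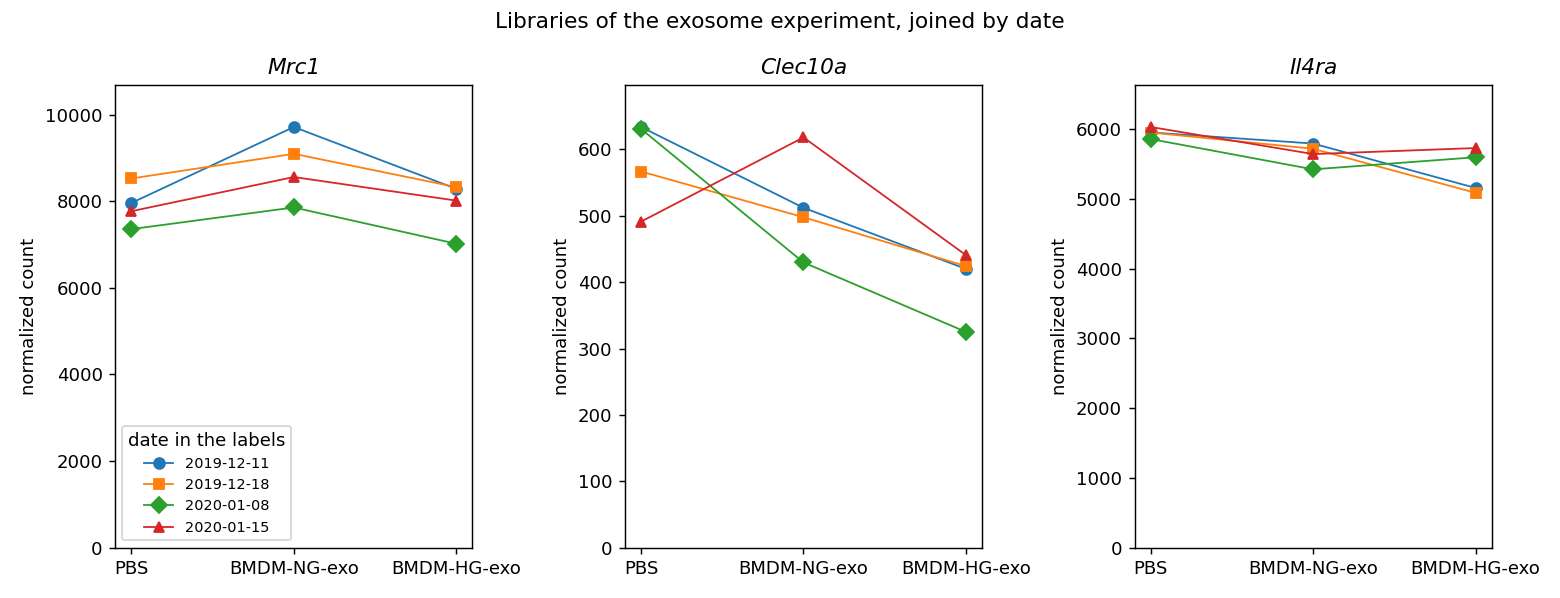
Normalized count (vertical axis, from 0) of Mrc1, Clec10a and Il4ra in the 3 groups of the exosome experiment, with PBS at the left and BMDM-HG-exo at the right; lines join libraries with the same date in the labels. Mrc1 peaks at BMDM-NG-exo on all 4 dates, and Clec10a is lowest at BMDM-HG-exo on all 4.

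The other markers did not pass in the exosome experiment. Pparg had 1225, 1314, 1257 and 1236 with PBS, 1314, 1318, 1121 and 1251 with BMDM-NG-exo and 1259, 1520, 1410 and 1347 with BMDM-HG-exo. It was higher with BMDM-HG-exo than with PBS on 4 of 4 dates, and the log2 difference of 0.14 had an adjusted p of 0.314 by limma. Chil3 had 48.1, 67.6, 41.5 and 70.5 with PBS, 59.0, 94.8, 71.0 and 83.4 with BMDM-NG-exo and 63.4, 79.0, 61.8 and 62.3 with BMDM-HG-exo. The BMDM-NG-exo library was above the PBS library of the same date on 4 of 4 dates for Chil3, with a log2 difference of 0.44 whose 95% interval ran from -0.10 to 0.98. Irf4 lay between 146 and 290 in the 12 libraries and Stat6 between 9081 and 10260, with overlap between all 3 groups. Stat6 was lower with BMDM-HG-exo than with PBS on 4 of 4 dates (log2 differences from -0.12 to -0.021), and the log2 difference of -0.06 had an adjusted p of 0.445 by limma.

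The direct comparison of the 2 exosome preparations passed 0.0139% of all genes and no marker. At an unadjusted p under 0.05 there were 3 of 7 markers, beside 942 of all 14413 genes tested. Of the markers, edgeR and DESeq2 called 0, beside 1 and 25 of all genes. Mrc1 was -10.2% and Clec10a -21.8% in BMDM-HG-exo relative to BMDM-NG-exo, each lower on 4 of 4 dates. The log2 differences were -0.15 (SE 0.0527, adjusted p = 0.582, limma) and -0.35 (SE 0.116, adjusted p = 0.53, limma). With the date as a block the adjusted p of Mrc1 was 0.0582. Pparg was 10.6% higher (log2 difference 0.15, SE 0.0682, adjusted p = 0.741, limma). Groups without overlap occurred for 3.86% of all genes, and for none of the 7 markers.

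The effect of high glucose and the effect of exosomes from high glucose BMDM were then compared, as the log2 difference of high from normal glucose minus that of BMDM-HG-exo from BMDM-NG-exo. Mrc1 and Pparg differed between the 2 effects, beside 4.74% of all genes. For Mrc1 the difference was -0.32 (SE 0.0807, adjusted p = 0.0128, limma), since its log2 difference was -0.47 with glucose and -0.15 with exosomes. For Pparg it was -0.33 (SE 0.0968, adjusted p = 0.0332, limma), with -0.19 and 0.15. Neither passed without the trend or without high glucose replicate 6, DESeq2 called Pparg only, and the fit with dates and library numbers as a block called Mrc1 only. Both calls also depended on single libraries. Mrc1 did not pass without BMDM-NG-exo replicate 1 (adjusted p = 0.0532). Pparg did not pass without BMDM-NG-exo replicate 3 (0.0839) or 4 (0.053), BMDM-HG-exo replicate 2 (0.0973) or 3 (0.0656), normal glucose replicate 1 (0.051) or 3 (0.0875), or high glucose replicate 2 (0.0547). In the same comparison of effects, 7 of 51 pathway genes passed, among them Hmox1 (0.53), Ptgs1 (0.33) and Irs2 (-0.33). The 5 of 15 classical markers that passed were all positive, among them Acod1 (1.82) and Cxcl10 (1.33). Clec10a had a positive difference (0.26, SE 0.153) with an adjusted p of 0.407 by limma.

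Across the 5 groups, the order of mean levels differed between markers. For Mrc1 the order from low to high was PBS, BMDM-HG-exo, high glucose, BMDM-NG-exo and normal glucose, and only the step to normal glucose was free of overlap between neighbours. The mean of Clec10a was lowest in BMDM-HG-exo and highest in normal glucose, and all neighbours in its order overlapped, as they did for Chil3, Pparg, Stat6 and Irf4. Il4ra ran the other way, from 4658 in high glucose to 5946 with PBS, with steps free of overlap between normal glucose and BMDM-HG-exo and between BMDM-NG-exo and PBS. The glucose and exosome libraries belong to separate experiments, and a level set across them also carries that difference. The SD over the 20 libraries on the log2 scale was largest for Chil3 (0.42), Clec10a (0.38) and Irf4 (0.33) and smallest for Stat6 (0.063).

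The genes most like these 3 in their centred log2 profile were sought among 11718 genes with a mean of at least 50, by the root mean square difference over the 20 libraries. Clec10a was nearest to Aif1 (0.15), which encodes the macrophage protein IBA1, then to the receptor gene Pilra (0.18) and the proton-sensing receptor gene Gpr65 (0.20). The genes nearest to Irf4 were Pgm3, Iqcc and Rgs18, each at 0.22. Chil3 had no close match, the nearest being Etfb at 0.30, then Hist2h3b at 0.31 and Tmem268 at 0.32. The 20 libraries share groups and depth, so these values describe likeness only.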

How the data were processed

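The 20 long RNA libraries of mouse BMDM were used. Reads had been quality filtered and trimmed, mapped to GRCm38 with STAR and assigned to genes with featureCounts, with read 2 as the sense strand. The submitters' processing notes also name cutadapt, without its role. The authors then scaled each library by a DESeq2 size factor, so the deposited signal is a normalized count. The annotation used for counting is not given in the sources used here. Symbols came from GENCODE M21, which held 14421 of the 14456 genes. The lowest median of recovered reads for any listed gene was 11. Totals over the listed genes ran from 34016445 to 56310712 reads in a library.

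Values were taken as log2 of the normalized count plus 1 and fitted with limma 3.58.1 in R 4.3.3 (eBayes with trend, two-sided). Benjamini-Hochberg adjustment covered genes whose mean reached 10. The 1 added draws log2 fold changes of genes with few reads toward 0. For Chil3 in high glucose the value was -0.422 with 0.5 added and -0.380 with 5. Count tests can still give smaller values, here -0.304 by edgeR and -0.305 by DESeq2. Glucose and exosome libraries were fitted apart, and the difference of both effects used all 20. The threshold was an adjusted p of 0.05, with a further log2 limit of 0.15 in either direction for exosome comparisons. These comparisons share samples. The study used DESeq2. Alternatives were DESeq2 1.42.0 and edgeR 4.0.16, on whole reads recovered from the smallest step of each column (100% of values whole within 0.01), other pseudocounts, filters and scalings, no trend, no fold limit, a block, and fits that each omitted 1 library.

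Dates in the labels are shared by the 3 exosome groups and pair their libraries. Directions by date were taken for the markers only, with no share over all genes. The correlation of deviations from group means averaged 0.011 over 12 same-date pairs (-0.019 to 0.054) and -0.0038 over 36 others. Replicates were not duplicates, with a chi-square per degree of freedom of 5.19 to 41.9 in 30 pairs. The fits were tested on simulated data. The members and gene lists were chosen with earlier results of these data known. Genes named were the 9 markers, genes of the pathway and classical lists that passed (at most 5 per list and direction, by smallest p), paralogs, and the 3 nearest genes to each of the 3 most variable markers. Macrophage and regulatory markers that passed were named after their values were seen. Promoters were RefSeq sequences on GRCm38.p6. A gene of the classical list is not reported here by name.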

Additional observations from a re-analysis of the deposited data

Results flagged for a closer look

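In BMDM-HG-exo, replicate 2 had a normalized count of 79.0 for Chil3 and stood apart from the other 3 libraries, which had between 61.8 and 63.4 (gap of 0.91 of the range). Of 35 groups of libraries examined in this way, chance flags about 1 in 20. Mrc1 (difference of log2 effects -0.32) and Pparg (-0.33) were noted because the effect of high glucose differed from that of BMDM-HG-exo relative to BMDM-NG-exo in limma's test of the difference.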

How the results depend on the processing

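Mrc1 with high glucose passed under all 10 alternatives and in all 8 fits without a library. For the other counts of markers that passed, high against normal glucose went from 1 to 2 (with Pparg) with pseudocount 5, a mean of at least 50, TMM factors, quantile normalization or DESeq2, and ranged from 1 to 2 with a library left out. BMDM-HG-exo against combined controls went from 0 to 1 with DESeq2 (0 to 1 with a library left out), and BMDM-NG-exo against PBS from 0 to 1 with the date as a replicate block (0 to 1, the 1 being Mrc1 without PBS replicate 3 or BMDM-NG-exo replicate 1). BMDM-HG-exo against PBS went from 1 to 2 with no fold limit and to 0 without the trend (1 to 2). The difference of glucose and exosome effects went from 2 to 0 without the trend, to 1 with DESeq2 and to 1 with the replicate block (0 to 2). Pathway genes in high glucose went from 18 to 6 without the trend and to 7 with the block, and against combined controls from 2 to 0 without the trend and to 4 with DESeq2 (0 to 4, with 1 without PBS replicate 2, 3 or 4 or BMDM-HG-exo replicate 3). Classical markers went from 8 to 5 without the trend in high glucose, and from 0 to 2 with DESeq2 against combined controls (0 to 2, with 2 without BMDM-NG-exo replicate 1 or 3). The cause was not tested.

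Signs turned only for log2 values that had not passed. Chil3 was 0.11 with the block in high glucose, and -0.019, -0.012 and -0.012 against combined controls with quantile normalization, edgeR and DESeq2. In the difference of effects, Chil3 was 0.31 and Irf4 0.039 with the block, and Il4ra was -0.016 and Irf4 0.011 with quantile normalization. Without a library, Chil3 ranged from -0.061 to 0.11 against combined controls, Stat6 from -0.059 to 0.00018 against BMDM-NG-exo, Pparg from -0.036 to 0.042 for BMDM-NG-exo against PBS, and Mrc1 from -0.034 to 0.057 and Irf4 from -0.13 to 0.11 for BMDM-HG-exo against PBS. In the difference of effects Chil3 ranged from -0.43 to 0.14, Il4ra from -0.0084 to 0.051 and Irf4 from -0.19 to 0.026.

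Over all genes, 1914 passed in high glucose, 654 without the trend and 788 with the block, whose numbers pair only 2 glucose libraries of each group (mean correlation 0.0091 over 2 pairs). Against combined controls 29 passed, 136 with DESeq2, 47 with pseudocount 5, 19 with quantile normalization and 1 without the trend, and 1 to 204 with a library left out. Between both exosome preparations 2 passed, 25 with DESeq2, 22 with the block, 5 with pseudocount 5, TMM factors or a mean of at least 50, and 1 with edgeR or without the trend. Without the trend, 95 of 432 passed for BMDM-NG-exo and 295 of 698 for BMDM-HG-exo against PBS. For the difference of effects, 685 passed, 324 without the trend and 296 with the block, and the split of 472 higher and 213 lower became 322 and 290 with quantile normalization. Chil3 has few reads, which widens its intervals.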
